A study of Mus musculus with 24 samples.

Results

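The genes described here encode the subunits of the vacuolar proton pump (V-ATPase) and the single-letter cathepsins. They were taken from the raw count table by symbol: every gene whose symbol starts with Atp6v, apart from Atp6v0d2, and every gene named Cts plus 1 lower-case letter. There were 40 matches among 27179 genes, and 35 of these had at least 10 counts in at least 3 of the 24 libraries. The 35 comprise 20 of 21 V-ATPase subunit genes, 14 of 18 cathepsins and Atp6v0c-ps2, a transcribed pseudogene of Atp6v0c. The 5 that fell short were the V1 subunit gene Atp6v1e2 and the cathepsins Ctsj, Ctsm, Ctsq and Ctsr, none of which exceeded 2 counts in any library. All 35 were also kept by the expression filter of the model. The reads of Atp6v0c and Atp6v0c-ps2 may be divided between near-identical sequences, so the values of both are uncertain.

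The V-ATPase pumps protons into lysosomes and endosomes, and in some cells out across the plasma membrane. Its V1 sector hydrolyses ATP on the cytosolic side (subunits A to H) and its V0 sector carries protons through the membrane (subunits a, c, c", d and e), and several subunits exist as isoforms made from separate genes and favoured by different cell types. Most cathepsins are lysosomal proteases that work best at the acid pH the pump provides. Ctsa and Ctsg are serine proteases, Ctsd and Ctse aspartic proteases, and the others cysteine proteases. In skin, cathepsins take part in antigen processing, matrix turnover and the breakdown of proteins in phagocytes and keratinocytes.

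RNA-Seq was done on skin biopsies of C3H/HeJ mice with alopecia areata (AA), an autoimmune loss of hair in which CD8+ T cells attack the follicle. Before treatment 6 libraries were made, 1 per cohort. Treated skin gave another 3 libraries for each of 6 groups: vehicle, ruxolitinib, tofacitinib and the selective inhibitors called JAK1i, JAK2i and JAK3i here. INCB039110 served as JAK1i, PF-06651600 as JAK3i and CEP-33779 as JAK2i. Janus kinases (JAKs) relay cytokine signals, and ruxolitinib and tofacitinib each block more than 1 of them. By the study's methods dosing was systemic, at 30 mg/kg of ruxolitinib, tofacitinib or JAK3i, and at 50 mg/kg of JAK2i or JAK1i, whereas the labels describe a topical preparation and call the vehicle libraries untreated. Neither says whether the 3 libraries of a group came from separate mice, so p-values measure the spread between these libraries, which may be partly technical. Age and sex are not given in the sources used here.

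The total count was 17311913 to 21858670 per library (median 19462756.5). The 8 skin markers (keratins, collagens and decorin) were detected in every group, summing to between 11872 and 33338 CPM. A second, small table of cytotoxic signature genes disagrees with the count table on which library is which. Over 5 genes, 18 of its 24 columns fit the library that bears their name and 6 fit a different one. In these 6 the inhibitor number and the replicate number are exchanged: JAK1i replicate 2 with JAK2i replicate 1, JAK1i replicate 3 with JAK3i replicate 1, and JAK2i replicate 3 with JAK3i replicate 2. Group assignment here rests on the header of the count table, and counts of calls over the 35 genes and the values of the leading genes are also given without these 6 libraries, which leaves 1 library each of JAK1i, JAK2i and JAK3i, assumed to vary like the other groups. Isoform shares and the counts for other gene lists are given with all libraries. JAK1i replicate 3 lay between the other JAK1i libraries and vehicle for many of the genes, and JAK3i replicate 3 lay below the other JAK3i libraries for many of them.

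The start regions of these genes show which regulatory letters they carry. A window from 250 bases before to 50 bases after an annotated start (RefSeq, GRCm38.p6) was available for 25 of the 35. Both strands were searched for CACGTG, the E-box read by MiT/TFE factors such as TFEB, which switch on lysosomal genes. It was present in 8 of the 25 windows and in 8.09% of all 27025 windows. The longer TCACGTGA, which contains CACGTG, was present in 5 of 25 and in 1.12% of all. The same 8 letters preceded by G and followed by C were in none of the 25 and in 0.370% of all. These TCACGTGA matches are shown in capitals on the gene's strand with 10 bases on either side, because they occur in both gene families.
Ctsd (chr7:142387909-142387936, minus strand): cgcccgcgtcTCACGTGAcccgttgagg
Ctsa (chr2:164833750-164833777, plus strand): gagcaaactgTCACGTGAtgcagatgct
Ctsa (chr2:164833767-164833794, plus strand): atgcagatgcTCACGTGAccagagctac
Atp6v1a (chr16:44139374-44139401, minus strand): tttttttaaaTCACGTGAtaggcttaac
Atp6v0d1 (chr8:105566051-105566078, minus strand): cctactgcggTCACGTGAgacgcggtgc
Atp6v0e (chr17:26676388-26676415, plus strand): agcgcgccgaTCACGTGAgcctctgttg
The sequence of Ctsd lies 99 bases before its start, and Ctsa holds a pair of matches 17 bases apart around the start used for its window. Some of the starts used lie inside the gene. The Ctsa gene begins at 164832872 and the Atp6v1a gene at 44139702, both upstream of the start used. The remaining genes with CACGTG were Atp6v0b, Ctsf and Ctsl.

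The window of Ctss held each of 3 other motifs searched, and it is shown because Ctss differed most between JAK3i and JAK1i. GAAA, any 2 bases and GAAA again form the core of the element bound by interferon-regulated factors (3 of 25 windows, 3.99% of all), GAGGAAGT is a core read by the myeloid factor PU.1 (2 of 25, 3.69% of all), and TCATGTGA is an E-box variant (2 of 25, 1.15% of all). The matches do not overlap one another in Ctss, and the second is printed as its reverse complement ACTTCCTC.
Ctss, interferon element (chr3:95526755-95526784, plus strand): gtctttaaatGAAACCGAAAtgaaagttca
Ctss, PU.1 core (chr3:95526774-95526801, plus strand): atgaaagttcACTTCCTCattgtggatg
Ctss, E-box variant (chr3:95526794-95526821, plus strand): tgtggatgctTCATGTGAcaagctccga
Ctso (chr3:81932606-81932635, plus strand): gcggagccaaGAAACCGAAAgagaaagcgg
Ctsc (chr7:88277924-88277951, plus strand): tcactaactaACTTCCTCaggccacctc
Ctso and Ctsc are shown as the other cathepsins with the interferon element and the PU.1 core, and Ctso holds a further interferon match that overlaps the first. Atp6v1d also held the first motif and Atp6v0c the third. A match describes letters only, and binding was not measured.

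In vehicle-treated skin the cathepsins were the more abundant family per length of exon. On the scale of CPM per kilobase of exon, Ctsd had the highest level among the members, 754 ± 64 (SD, n = 3). Ctss stood at 330 ± 35, Ctsb at 265 ± 7.3 and the pseudogene Atp6v0c-ps2 at 408 ± 3.8. The rank of the pseudogene is uncertain. Its exon length was taken as 465 bases, while its RefSeq gene runs from 37805975 to 37807107 on chromosome 6. The V-ATPase genes apart from the pseudogene reached at most 87.4 ± 12, for Atp6v1c2. The level of Atp6v0c is uncertain here, since its reads may be divided with the pseudogene. As a share of all counts, the 14 cathepsins made up 0.600% ± 0.016 (SD, n = 3) and the 20 subunit genes 0.177% ± 0.006 after vehicle. Before treatment these shares were 0.558% ± 0.068 and 0.169% ± 0.010 (n = 6). In JAK3i libraries the cathepsin share was 0.860% to 1.405% and in JAK1i libraries 0.153% to 0.260%, with no overlap between either group and vehicle, while the V-ATPase share was 0.133% to 0.180% and 0.0868% to 0.121%, against 0.171% to 0.183% with vehicle.

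With vehicle or JAK2i no member changed beyond the spread between libraries. None of the 35 passed the test (edgeR quasi-likelihood, Benjamini-Hochberg adjusted p below 0.05 over 17770 genes) in vehicle against pretreatment or in JAK2i against vehicle. The background was 0% of all genes in each direction in both comparisons, DESeq2 called 0 members in both, and 0 of the 35 had an unadjusted p below 0.05. At that unadjusted level 232 and 213 of all genes fell, respectively. The log2 fold changes of the 35 lay between -0.32 and 0.26 for vehicle against pretreatment and between -0.25 and 0.33 for JAK2i against vehicle. The 95% intervals stayed within a log2 fold change of 1 in either direction for 32 of 35 genes in the first comparison and 29 of 35 in the second. Those with wider intervals were Atp6v1g3, Ctsg and Ctsk in both, and in the second also Atp6v1b1, Atp6v1c2 and Ctse. For these genes a change of that size is not excluded. Without the 6 libraries of conflicting name, JAK2i against vehicle again gave 0 calls in each direction.

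Most cathepsins and many V-ATPase genes were lower after JAK1i, ruxolitinib and tofacitinib than after vehicle. After JAK1i 25 of the 35 were lower and 3 higher than vehicle, where 35.4% of all genes tested were lower and 28.8% higher (64.2% in either direction). Without the 6 libraries the counts were 22 and 4. After ruxolitinib 23 were lower and 3 higher, against a background of 27.2% and 23.6% (50.9% in either direction). With tofacitinib 21 were lower and 3 higher, where the background was 28.2% and 24.8% (52.9% in either direction). The median log2 fold change of the cathepsins was -1.60, -0.93 and -0.96 in the 3 comparisons, and that of the V-ATPase genes -0.42, -0.29 and -0.29. The median over all genes was -0.06, -0.0048 and -0.0069. Of the 14 cathepsins 11, 10 and 11 fell and 1 rose in each, and of the 20 V-ATPase genes 13, 12 and 9 fell and 2 rose. With upper-quartile scaling 10, 6 and 6 V-ATPase genes fell, and with library totals alone 13, 6 and 6. These comparisons share the vehicle libraries. In bulk skin fewer cells of a type and less RNA per cell cannot be told apart.

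JAK3i gave a divided picture. Against vehicle 15 of the 35 rose and 12 fell, where 31.7% of all genes rose and 33.1% fell (64.8% in either direction), so the share that fell (34.3%) was near the background and the share that rose was 42.9%. Among the cathepsins 8 rose and 4 fell (median log2 fold change 0.53). Among the V-ATPase genes 6 rose and 8 fell, and their median of -0.04 turned to 0.08 with upper-quartile scaling and to 0.01 with library totals alone. The median over all genes was 0.02. Leaving out JAK3i replicate 3 changed the counts to 18 higher and 9 lower. Leaving out the 6 libraries of conflicting name, which keeps JAK3i replicate 3 alone, gave 8 higher and 15 lower. The 7 rises lost there were Atp6v0c, Atp6v0c-ps2, Atp6v1c1, Atp6v1f, Ctsa, Ctsd and Ctsg.

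**Figure D1:**
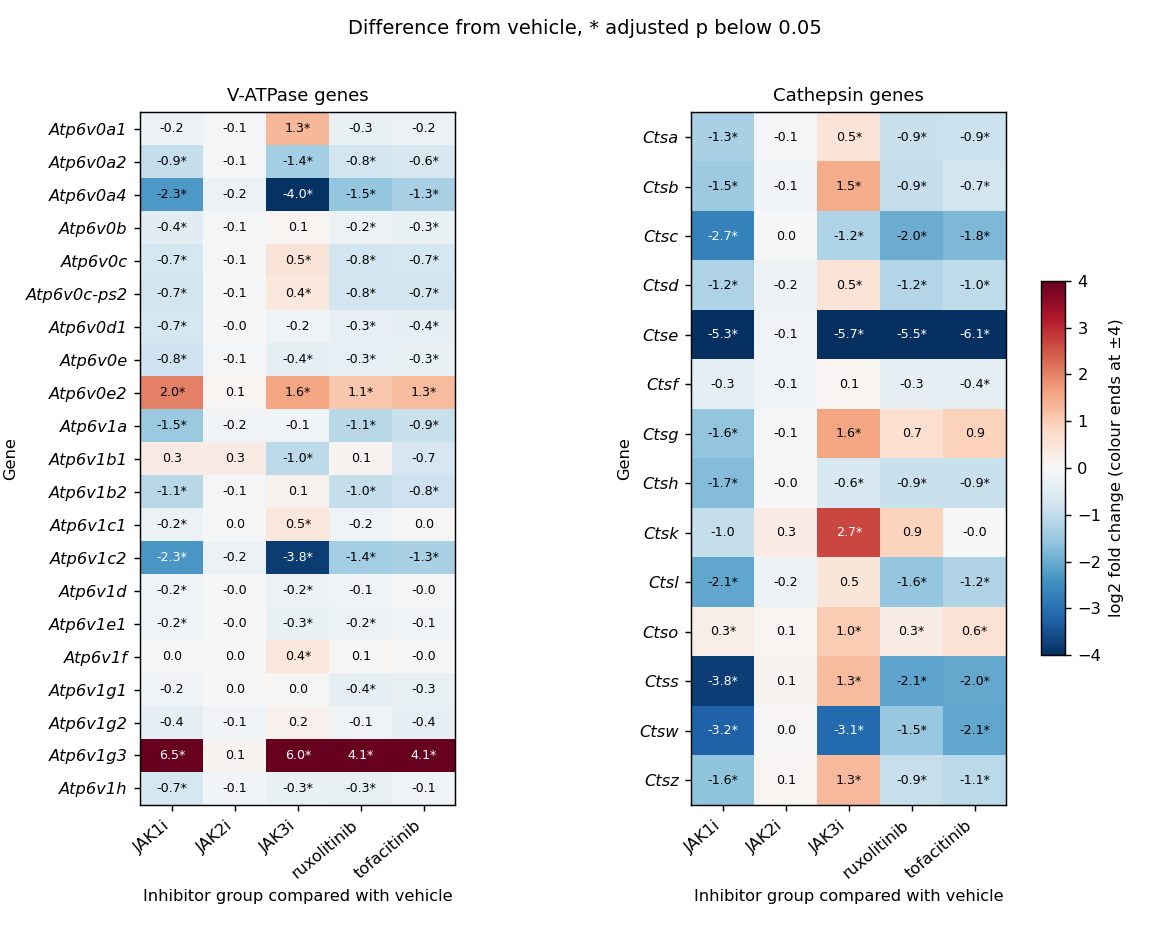
The heat maps give the log2 fold change against vehicle for the 21 V-ATPase genes (left, the pseudogene Atp6v0c-ps2 included) and the 14 cathepsins (right) in each inhibitor group, with an asterisk where the adjusted p was below 0.05. The JAK2i column holds no asterisk, and Ctss runs from -3.76 after JAK1i to 1.27 after JAK3i.

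Ctss (cathepsin S), which trims the invariant chain of MHC class II in antigen-presenting cells, showed the largest difference between JAK3i and JAK1i. It measured 298 to 626 CPM before treatment (median 443), and 497, 413 and 454 in the vehicle libraries. JAK2i libraries held 449, 564 and 466 CPM. It was 19.6, 22.9 and 58.0 after JAK1i, 85.2, 104 and 124 after ruxolitinib, and 99.9, 114 and 118 after tofacitinib. The JAK3i libraries held 1140, 1388 and 770. All JAK3i libraries thus lay above, and all JAK1i, ruxolitinib and tofacitinib libraries below, the vehicle range. The log2 fold change was 1.27 ± 0.32 (SE, adjusted p = 0.0019) after JAK3i and -3.76 ± 0.36 after JAK1i (adjusted p = 3.9e-08). It was -2.12 ± 0.33 after ruxolitinib and -2.04 ± 0.33 after tofacitinib. Without the 6 libraries the JAK3i value was 0.79 (adjusted p = 0.044) and the JAK1i value -4.41.

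Ctsk (cathepsin K) degrades collagen and is the main protease of osteoclasts, and its gene lies 17.4 kb from Ctss on chromosome 3. It had 84.3 to 204 CPM before treatment (median 146) and 130, 98.5 and 126 after vehicle. JAK3i libraries held 777, 1152 and 339 CPM, all above every library of the other groups. JAK1i libraries held 21.7, 26.5 and 134, so replicates 1 and 2 were low and replicate 3 stood just above the vehicle libraries. JAK2i libraries held 131, 141 and 166 CPM. Ruxolitinib libraries were at 176, 220 and 265, above vehicle without passing the test (log2 fold change 0.90, adjusted p = 0.138), and tofacitinib libraries at 118, 136 and 98.4. The log2 fold change after JAK3i was 2.68 ± 0.52 (adjusted p = 1.5e-04), and 1.55 without the 6 libraries (adjusted p = 8.7e-04). After JAK1i it was -0.96 (adjusted p = 0.096), and -2.18 without JAK1i replicate 3 (adjusted p = 5.2e-05).

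Ctsb and Ctsz rose with JAK3i and fell with JAK1i, ruxolitinib and tofacitinib. Ctsb, the abundant lysosomal cathepsin B, measured 1563, 1680 and 1651 CPM after vehicle and 1274 to 1899 before treatment (median 1439). It reached 4970, 5359 and 3353 after JAK3i. JAK1i libraries held 525, 500 and 745 CPM, ruxolitinib libraries 785, 870 and 898, tofacitinib libraries 796, 1185 and 947, and JAK2i libraries 1576, 1626 and 1292. None of the JAK3i, JAK1i, ruxolitinib or tofacitinib libraries overlapped vehicle. Its log2 fold changes were 1.48 ± 0.19 after JAK3i (adjusted p = 1.4e-06), -1.47 ± 0.19 after JAK1i, -0.94 ± 0.19 after ruxolitinib and -0.74 ± 0.19 after tofacitinib. Ctsz, a carboxypeptidase, held 174, 147 and 168 CPM after vehicle and 127 to 206 before treatment (median 169). It held 456, 446 and 290 after JAK3i. JAK1i libraries had 49.7, 44.0 and 65.9 CPM, ruxolitinib libraries 83.2, 90.1 and 84.3, tofacitinib libraries 67.3, 89.8 and 76.2, and JAK2i libraries 152, 193 and 172. For Ctsz the changes were 1.29 ± 0.19 after JAK3i (adjusted p = 6.0e-06), -1.62 after JAK1i, -0.92 after ruxolitinib and -1.07 after tofacitinib. Without the 6 libraries JAK3i gave 1.07 for Ctsb and 0.86 for Ctsz, with adjusted p of 3.2e-04 and 0.0025.

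Of the remaining lysosomal cathepsins, Ctsd (cathepsin D) and Ctsa (the protective protein of beta-galactosidase and neuraminidase) had smaller rises with JAK3i. Ctsd measured 1613 to 1952 CPM after vehicle, 2013 to 3054 after JAK3i and 704 to 822 after JAK1i. The log2 fold change of Ctsd after JAK3i was 0.54 ± 0.16 (adjusted p = 0.006) and that of Ctsa 0.51 ± 0.13 (adjusted p = 0.002). Neither passed the test without the 6 libraries, with 0.19 (adjusted p = 0.40) and 0.31 (adjusted p = 0.057). After JAK1i, ruxolitinib and tofacitinib Ctsd gave -1.25, -1.17 and -1.03, and Ctsa -1.29, -0.90 and -0.86. Ctsl (cathepsin L), also used by keratinocytes, fell to -2.07, -1.56 and -1.21 in the same comparisons, while after JAK3i its libraries held 1185, 1798 and 872 CPM against 886, 974 and 904 with vehicle (0.48, adjusted p = 0.111). Ctsf gave 0.07 after JAK3i and passed the test against vehicle for tofacitinib alone (-0.39, adjusted p = 0.041), a call lost without vehicle replicate 2 or 3 or tofacitinib replicate 1 or 3 (adjusted p = 0.109, 0.129, 0.134 and 0.082).

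**Figure D2:**
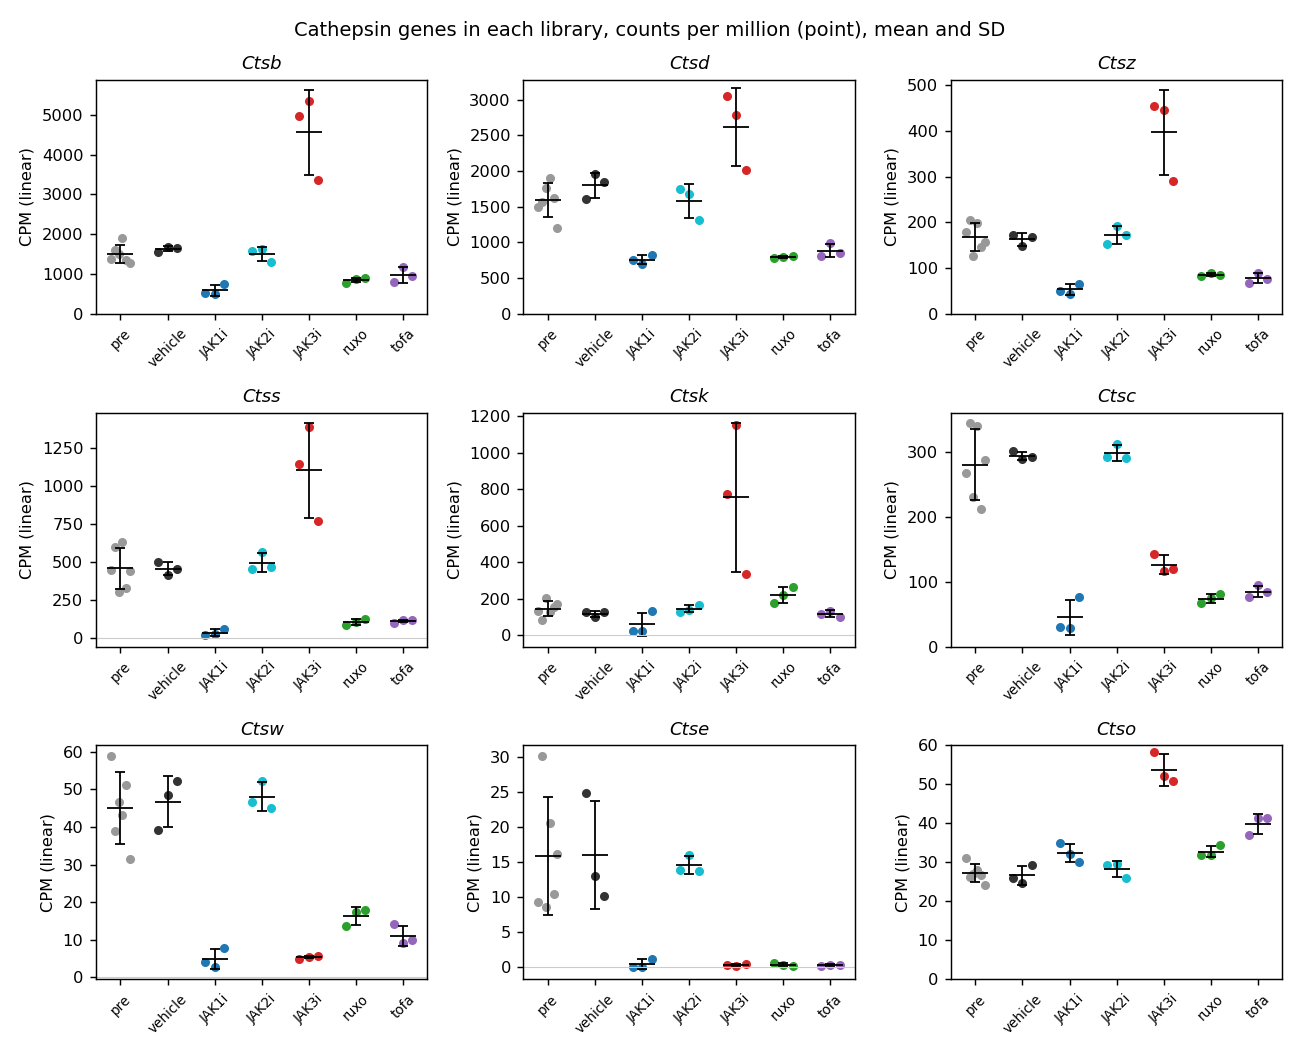
CPM (linear axis) of 9 cathepsins in each library (points) by group, with the mean and SD (bars). The JAK3i points of Ctsb, Ctsz, Ctss, Ctsk and Ctso lie above all vehicle points, and those of Ctsc, Ctsw and Ctse below them.

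A further set of cathepsins fell with JAK3i as well. Ctsc (cathepsin C) activates the granzymes of cytotoxic cells and other granule serine proteases, and Ctsw (cathepsin W) is made by cytotoxic T cells and NK cells. Ctsw had 39.3, 48.6 and 52.4 CPM after vehicle and 31.6 to 58.9 before treatment (median 44.98). It had 4.19, 2.79 and 7.96 CPM after JAK1i and 5.01, 5.52 and 5.58 after JAK3i. Ruxolitinib libraries held 13.7, 17.3 and 18.01, tofacitinib libraries 14.2, 9.04 and 9.98, and JAK2i libraries 46.7, 52.4 and 45.1. The 4 groups that fell lay wholly below vehicle, and the log2 fold changes were -3.23 ± 0.28 (JAK1i), -3.12 ± 0.28 (JAK3i), -1.52 ± 0.25 (ruxolitinib) and -2.08 ± 0.26 (tofacitinib), with adjusted p of at most 5.6e-05. Ctsc measured 301, 289 and 292 CPM with vehicle, 213 to 344 before treatment (median 277) and 292, 312 and 290 with JAK2i. It was 29.7, 28.5 and 76.4 CPM after JAK1i, 143, 116 and 120 after JAK3i, 67.0, 74.4 and 80.4 after ruxolitinib, and 76.4, 94.1 and 83.5 after tofacitinib. All 4 groups lay below vehicle, and Ctsc fell by 1.22 ± 0.26 on the log2 scale with JAK3i (adjusted p = 3.5e-04), beside -2.71, -1.99 and -1.80 with JAK1i, ruxolitinib and tofacitinib. Ctsh, an aminopeptidase, gave -0.61 after JAK3i (adjusted p = 0.009, -0.45 with adjusted p = 0.063 without JAK3i replicate 3, and -0.96 without the 6 libraries) and between -0.89 and -1.74 after the other 3. The 9 CD8 T cell markers (among them Cd8a, Cd8b1, Cd3g and Gzmb) summed to 354 to 408 CPM in vehicle libraries, 36.0 to 48.3 in tofacitinib, 65.7 to 76.3 in ruxolitinib, 18.1 to 25.0 in JAK3i and 14.5 to 41.1 in JAK1i libraries, with none at 0. Their part in the fall of Ctsw and Ctsc was not tested.

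Ctse (cathepsin E), an endosomal protease of epithelia and antigen-presenting cells, fell to the edge of detection. It measured 24.8, 13.1 and 10.1 CPM after vehicle, 8.52 to 30.2 before treatment (median 13.3) and 13.8, 16.0 and 13.8 after JAK2i. JAK1i libraries held 0.0559, 0 and 1.177 CPM, where replicate 3 gave 21 of the group's 22 counts. JAK3i libraries held 0.316, 0.204 and 0.406 CPM, ruxolitinib libraries 0.513, 0.303 and 0.194, and tofacitinib libraries 0.0979, 0.344 and 0.266. Every library of these 4 groups lay far below vehicle. The log2 fold changes were -5.29, -5.67, -5.54 and -6.05 in that order (SE 0.70 to 0.74). The JAK1i value moved to -8.81 without JAK1i replicate 3 and to -7.90 without the 6 libraries. Ctse reached 10 counts in 14 libraries, mostly those of pretreatment, vehicle and JAK2i skin. It held 4 to 8 counts per JAK3i library and 2 to 7 per tofacitinib library. The gene thus passed the count minimum through the groups where it was high, and it stands among the genes counted as lower in each of the 4.

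Ctso (cathepsin O), a little-studied cysteine cathepsin, rose with each of the 4. It had 25.9, 24.8 and 29.4 CPM after vehicle, 24.3 to 31.1 before treatment (median 26.8) and 29.4, 29.7 and 26.0 with JAK2i. JAK3i libraries held 58.3, 52.1 and 50.8 CPM, JAK1i libraries 34.9, 32.2 and 30.1, ruxolitinib libraries 31.8, 32.0 and 34.5, and tofacitinib libraries 37.0, 41.3 and 41.3. The JAK3i values were the highest of all groups and none of the 4 groups overlapped vehicle. The log2 fold change was 1.01 ± 0.09 after JAK3i (adjusted p = 1.3e-08), 0.58 ± 0.09 after tofacitinib, 0.30 ± 0.09 after ruxolitinib and 0.28 ± 0.09 after JAK1i. The latter pair missed the threshold without vehicle replicate 2 (adjusted p = 0.057 and 0.060). Ctsg (cathepsin G), a granule protease of neutrophils and mast cells, was near the limit of counting, with 11 to 12 counts per vehicle library. Its levels were 0.552, 0.547 and 0.587 CPM with vehicle, 0.220 to 0.705 before treatment (median 0.496), 1.42, 2.55 and 1.12 with JAK3i, and 0.112, 0.105 and 0.336 with JAK1i. JAK2i libraries held 0.510, 0.464 and 0.619, ruxolitinib libraries 0.839, 0.650 and 1.21, and tofacitinib libraries 0.588, 1.72 and 0.903. The rise with JAK3i (1.59 ± 0.41, adjusted p = 0.002) did not pass without the 6 libraries (1.01, adjusted p = 0.133), and the fall with JAK1i (-1.59 ± 0.55, adjusted p = 0.017) did not pass without JAK1i replicate 1 (adjusted p = 0.085), without replicate 2 (adjusted p = 0.092) or without the 6 libraries (-2.15, adjusted p = 0.055). Mast cell markers (9 genes, none at 0) summed to 121 to 150 CPM after vehicle and 571 to 620 after JAK3i. They summed to 104 to 180 after JAK1i, 302 to 459 after ruxolitinib and 498 to 771 after tofacitinib. Neutrophil markers (7 genes, none at 0) had lower sums in all 4 groups than after vehicle. They summed to 47.8 to 56.6 CPM after vehicle and 21.6 to 36.3 after JAK3i. Their sums were 5.31 to 13.5 after JAK1i, 11.98 to 17.72 after ruxolitinib, 12.24 to 16.96 after tofacitinib and 39.4 to 198 before treatment. Of the 7 genes 4 passed the test as lower in each of the 4 groups, where 27.2% to 35.4% of all genes were lower. After JAK3i 1 was higher and after tofacitinib 1, where 31.7% and 24.8% of all genes were higher. The part of either cell type in the values of Ctsg was not tested.

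Among the V-ATPase genes the strongest falls were in 2 isoforms known from specialised epithelia. Atp6v0a4 encodes the a4 subunit, and Atp6v1c2 the C2 subunit, both best known from kidney and epididymis. Atp6v0a4 measured 95.8, 118 and 112 CPM after vehicle, 67.3 to 119 before treatment (median 91.8) and 103, 99.0 and 71.3 with JAK2i. It measured 5.33, 7.46 and 8.17 CPM after JAK3i and 9.50, 12.4 and 44.7 after JAK1i. Ruxolitinib libraries held 34.8, 37.2 and 39.3, and tofacitinib libraries 40.5, 43.6 and 47.5. All 4 groups lay below vehicle without overlap, and JAK1i replicate 3 lay at the level of the ruxolitinib and tofacitinib libraries. The log2 fold change was -3.95 ± 0.40 after JAK3i (adjusted p = 6.8e-08), -2.29 ± 0.37 after JAK1i (-3.19 without JAK1i replicate 3, and -3.39 without the 6 libraries), -1.55 ± 0.36 after ruxolitinib and -1.31 ± 0.35 after tofacitinib.

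Atp6v1c2 followed the same order of levels. It had 163, 221 and 196 CPM with vehicle, 99.9 to 201 before treatment (median 166) and 197, 175 and 126 with JAK2i. After JAK3i it had 13.6, 15.2 and 12.8 CPM, after JAK1i 15.1, 21.3 and 80.1, after ruxolitinib 71.7, 73.8 and 74.2, and after tofacitinib 76.0, 76.0 and 85.9. JAK1i replicate 3 again stood with the latter 2 groups. The changes were -3.80 ± 0.43 after JAK3i (adjusted p = 2.4e-07), -2.31 ± 0.40 after JAK1i (-3.29 without JAK1i replicate 3, and -3.55 without the 6 libraries), -1.40 ± 0.38 after ruxolitinib and -1.29 ± 0.38 after tofacitinib. Atp6v0a2, the a2 subunit found on endosomes and the Golgi, fell by 1.36 on the log2 scale after JAK3i (35.0 to 39.7 CPM against 92.6 to 98.1) and gave -0.95, -0.78 and -0.63 after JAK1i, ruxolitinib and tofacitinib. Markers of the hair shaft and the epidermis were lower in the same groups. The 12 hair shaft markers summed to 1100 to 2677 CPM in vehicle libraries, 7.70 to 10.1 in tofacitinib, 12.1 to 32.9 in ruxolitinib, 7.15 to 12.5 in JAK3i and 12.5 to 124 in JAK1i libraries. The 9 epidermal markers summed to 27530 to 30863 CPM in vehicle libraries, 13941 to 18056 in tofacitinib, 14204 to 17090 in ruxolitinib, 7960 to 10335 in JAK3i and 12073 to 18385 in JAK1i libraries. None of these markers was at 0 in any group, and their part in the falls of Atp6v0a4 and Atp6v1c2 was not tested.

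Atp6v0a1, which encodes the a1 subunit, rose after JAK3i. Its vehicle libraries held 88.6 to 90.0 CPM and its JAK3i libraries 172 to 280 (log2 fold change 1.32 ± 0.15, adjusted p = 2.2e-07, and 0.97 without the 6 libraries). Against vehicle it gave -0.19, -0.30 and -0.24 for JAK1i, ruxolitinib and tofacitinib, none past the test. Smaller rises after JAK3i, none past the test without the 6 libraries, were those of Atp6v0c, the proton-carrying ring subunit (0.53), Atp6v1c1 (0.46) and Atp6v1f (0.44). The genes of the catalytic subunit A and of its nucleotide-binding partner B2 gave other values. Atp6v1a gave -1.48, -1.12 and -0.89 and Atp6v1b2 -1.12, -0.95 and -0.82 after JAK1i, ruxolitinib and tofacitinib, against -0.12 (adjusted p = 0.55) and 0.13 (adjusted p = 0.39) after JAK3i. In both genes JAK3i replicate 3 was the lowest of its group, at 171 CPM for Atp6v1a against 264 and 290. With that library alone, Atp6v1a gave -0.59 (adjusted p = 0.0019) and Atp6v1b2 -0.34 (adjusted p = 0.013).

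Atp6v0e2, an isoform of the small e subunit known from brain, was among the few that rose with each of the 4. It had 11.7, 9.54 and 8.86 CPM with vehicle, 9.95 to 12.7 before treatment (median 11.7) and 10.4, 9.69 and 11.5 with JAK2i. JAK1i libraries held 48.1, 43.0 and 30.4 CPM, JAK3i libraries 32.7, 27.7 and 30.1, ruxolitinib libraries 21.9, 21.2 and 20.4, and tofacitinib libraries 25.2, 27.1 and 20.3. None of these overlapped vehicle, and the log2 fold changes were 2.01 ± 0.15, 1.59 ± 0.15, 1.08 ± 0.15 and 1.27 ± 0.15, with adjusted p of at most 6.3e-06. Skeletal muscle markers (14 genes, none at 0) summed to 7426 to 10041 CPM in vehicle libraries, 18422 to 46018 in tofacitinib, 27947 to 30197 in ruxolitinib, 32834 to 43879 in JAK3i and 47871 to 123490 in JAK1i libraries. Their part in the rise of Atp6v0e2 was not tested.

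Atp6v1g3, an isoform of the G subunit known from kidney, was nearly absent without treatment. The 3 vehicle libraries held 1 count in all, the 6 pretreatment libraries 2 and the JAK2i libraries 1. JAK1i libraries held 114 counts (2.96, 2.37 and 0.896 CPM) and JAK3i libraries 83 (1.58, 1.48 and 1.22 CPM). Ruxolitinib libraries held 24 (0.0932, 0.477 and 0.534 CPM) and tofacitinib libraries 23, of which replicate 1 gave 18 (0.881, 0.0491 and 0.212 CPM). The depth-corrected ratio to vehicle was 120 for JAK1i (95% interval 21.0 to 4765) and 91.9 for JAK3i (16.0 to 3673). It was 24.9 for ruxolitinib (4.05 to 1022) and 25.2 for tofacitinib (4.09 to 1037). The intervals are exact binomial and cover counting error only. The gene reached 10 counts in 9 libraries, all of them in these 4 groups, so it passed the count minimum through the groups where it was high. It stands among the genes counted as higher in each of the 4, a call that tofacitinib lost without its replicate 1 (adjusted p = 0.132). Atp6v1b1, the B1 subunit of acid-secreting epithelia, held 6.12, 5.86 and 4.99 CPM with vehicle, 3.40 to 9.59 before treatment (median 7.12) and 4.32, 1.89 and 2.03 with JAK3i (log2 fold change -1.04 ± 0.38, adjusted p = 0.020). This fall was lost without JAK3i replicate 2 or 3 or vehicle replicate 1 (adjusted p = 0.084, 0.086 and 0.052). Its libraries held 5.36, 4.79 and 11.3 CPM with JAK1i, 7.75, 5.93 and 7.66 with JAK2i, 6.62, 6.02 and 5.53 with ruxolitinib, and 2.69, 4.77 and 3.29 with tofacitinib, none past the test. Atp6v1g2, a neuronal G isoform, passed no test against vehicle. It held 3.63, 4.27 and 3.87 CPM with vehicle, 2.63 to 5.99 before treatment (median 4.18), 3.24, 2.05 and 3.64 with JAK1i, and 3.88, 3.56 and 3.43 with JAK2i. With JAK3i it held 5.64, 3.93 and 3.81 CPM, with ruxolitinib 3.87, 3.68 and 3.16, and with tofacitinib 3.33, 3.05 and 2.76. Atp6v1e2, a testis isoform of subunit E, held 1 count in the JAK2i and 2 in the JAK3i libraries and 0 in all others, where 3 counts allow at most 0.0474 CPM in the vehicle group.

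**Figure D3:**
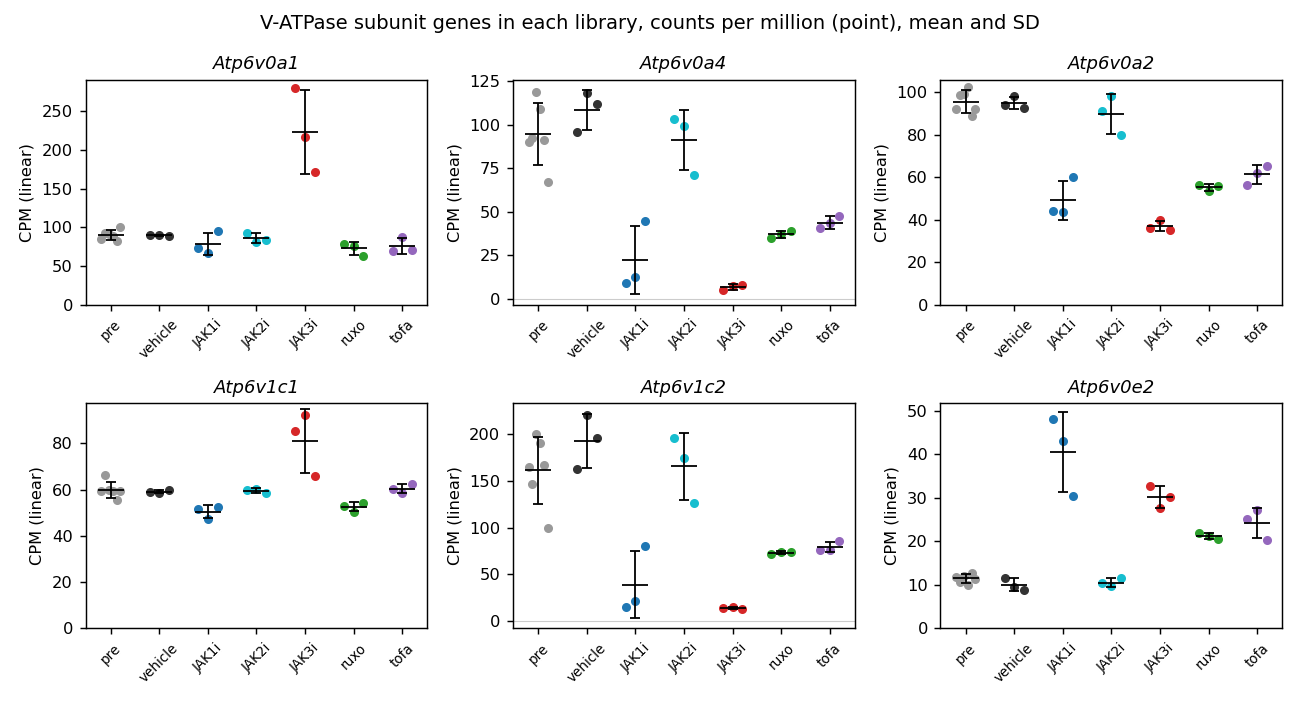
CPM (linear axis) of 6 V-ATPase subunit genes in each library (points) by group, with the mean and SD (bars). Atp6v0a1 and Atp6v1c1 are higher in the JAK3i group, Atp6v0a4 and Atp6v1c2 have their lowest mean there, and JAK1i replicate 3 stands apart from replicates 1 and 2 in the latter pair.

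The other V-ATPase genes changed less. Atp6v0e (subunit e), Atp6v0d1 (subunit d) and Atp6v1h, the regulatory subunit H, gave -0.84, -0.70 and -0.69 after JAK1i. Atp6v0e and Atp6v1h also fell after JAK3i (-0.39, or -0.61 without the 6 libraries, and -0.26), Atp6v1h without passing when JAK3i replicate 3 was left out (adjusted p = 0.109). Atp6v0b, the c" subunit, gave -0.45 after JAK1i, -0.27 after tofacitinib and -0.22 after ruxolitinib, and 0.09 after JAK3i. The stalk subunit genes Atp6v1d and Atp6v1e1 gave -0.23 and -0.30 after JAK3i. Their falls after JAK1i of 0.17 and 0.18, and that of Atp6v1c1 (-0.23), did not pass when any JAK1i library was left out, and those of Atp6v1d and Atp6v1e1 turned to 0.0014 and 0.052 without the 6 libraries.

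The isoform make-up of the pump's transcripts differed between groups. Levels per kilobase of exon, scaled to library totals without TMM, were summed within each subunit. Tcirg1 (the a3 subunit of osteoclasts and immune cells) and Atp6v0d2 (the d2 subunit of osteoclasts and macrophages) were added, although neither is among the 35. These shares have no test, and they depend on the exon lengths used (5601 bases for Atp6v1c1 and 2174 for Atp6v1c2). Without division by length, Tcirg1 made up 46.6% of subunit a after JAK3i instead of 55.3%, and Atp6v0d2 74.2% of subunit d instead of 65.7%. Atp6v0e2 made up 8.84% of subunit e with vehicle instead of 13.1%. The C2 isoform made up 89.2% ± 1.5 of subunit C transcripts with vehicle (SD, n = 3) and 30.8% ± 2.4 after JAK3i, while subunit C as a whole went from 97.8 ± 12 to 21.3 ± 2.9 CPM per kilobase. After JAK1i the C2 share ranged from 43.0% to 79.8%, the highest being replicate 3. Ruxolitinib and tofacitinib gave 78.2% and 77.1%.

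The a subunits were rearranged after JAK3i. With vehicle, Atp6v0a1, Atp6v0a2, Atp6v0a4 and Tcirg1 made up 17.1%, 17.6%, 27.2% and 38.1%. After JAK3i they made up 36.9%, 6.17%, 1.63% and 55.3%, with a summed level of 94.0 ± 21.0 CPM per kilobase against 78.8 ± 1.2. After JAK1i the summed level was 32.5 ± 9.5, with 34.1% from Atp6v0a1. Atp6v0d2 held 4.19, 4.22 and 3.77 CPM with vehicle and 328, 350 and 163 with JAK3i, a log2 fold change of 6.11 ± 0.30 (adjusted p = 9.6e-12), and its share of subunit d was 65.7% against 2.52%. In the other groups that share was 2.03% to 3.34%. Atp6v0e2 supplied 13.1% of subunit e with vehicle, 51.7% after JAK1i, 37.4% after JAK3i, 28.5% after ruxolitinib and 30.3% after tofacitinib, at summed levels between 29.7 and 34.7 CPM per kilobase in all groups.

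**Figure D4:**
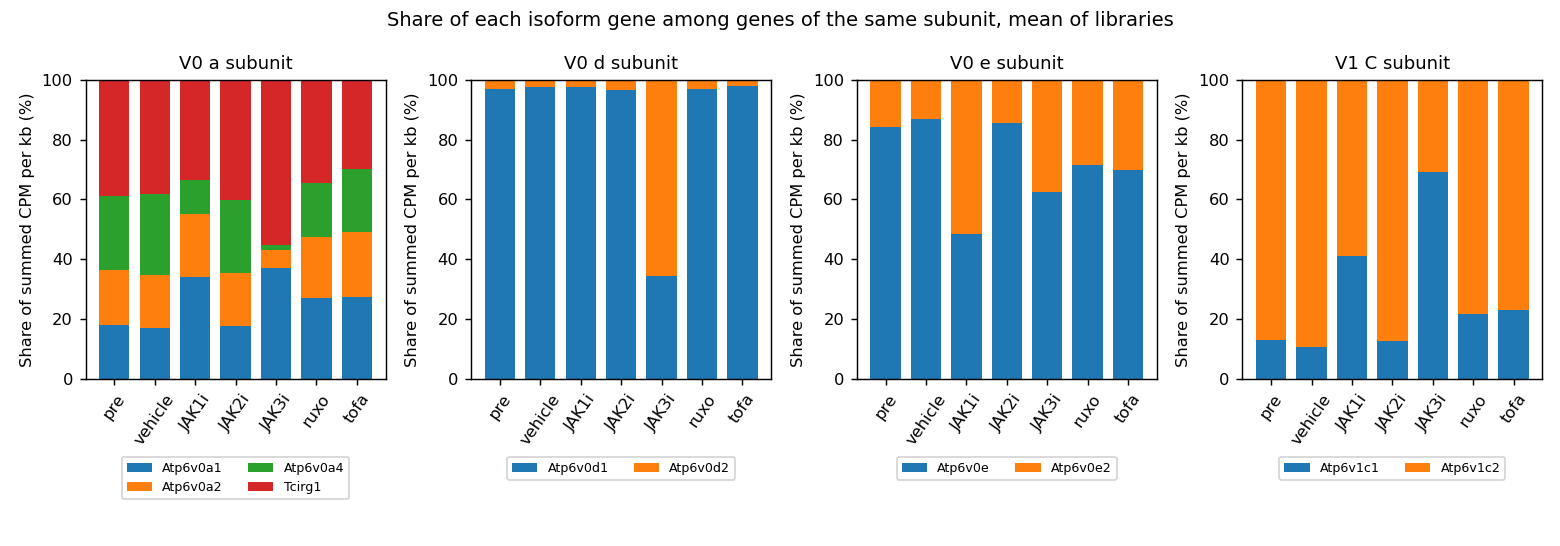
Stacked bars give, for 4 subunits, the mean share (%) of each isoform gene in the summed CPM per kilobase of exon in each group. Atp6v0d2 fills 65.7% of the subunit d bar in the JAK3i group and at most 3.34% elsewhere, and the Atp6v1c2 share of subunit C drops from 89.2% with vehicle to 30.8% with JAK3i.

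The direct comparisons set JAK3i beside the other inhibitors that changed these genes. They were chosen because an earlier account of these data had set JAK3i apart for lysosomal genes, so they are not an independent test. They share the JAK3i libraries, and the dose of JAK1i differed from that of JAK3i. Against JAK1i 23 of the 35 were higher and 5 lower after JAK3i, where 21% of all genes were higher and 21.9% lower (42.9% in either direction). Fitted with these 2 groups alone, the counts were 15 and 0. Against ruxolitinib, at the same stated dose, 21 were higher and 5 lower (background 17.5% and 19%, or 36.5% in either direction), and against tofacitinib 18 and 5 (background 18.7% and 20.7%, or 39.3% in either direction). Among the 14 cathepsins 12, 10 and 9 were higher and 0, 1 and 1 lower, and the 1 was Ctsw in both. Among the 20 V-ATPase genes 10, 10 and 8 were higher and 5, 4 and 4 lower. The medians were 1.80, 1.16 and 1.02 for cathepsins and 0.43, 0.32 and 0.33 for V-ATPase genes, beside -0.03, 0.01 and 0.02 over all genes. Without the 6 libraries the counts were 17 higher and 4 lower, 15 and 6, and 12 and 8.

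Ctss differed most, by a log2 fold change of 5.04 ± 0.38 from JAK1i (adjusted p = 6.15e-09), 3.40 ± 0.35 from ruxolitinib (adjusted p = 5.8e-07) and 3.31 ± 0.35 from tofacitinib (adjusted p = 5.7e-07). Ctsb gave 2.95, 2.42 and 2.22, Ctsz 2.90, 2.21 and 2.35, and Ctsl 2.55, 2.04 and 1.69, with SE of at most 0.27. For Ctsk the values were 3.64 ± 0.54, 1.78 ± 0.50 and 2.68 ± 0.52. The Ctsk difference from ruxolitinib missed the threshold without JAK3i replicate 2 (1.31, adjusted p = 0.055) and without the 6 libraries (0.61, adjusted p = 0.19), and that from JAK1i was 4.86 without JAK1i replicate 3. Among the pump genes Atp6v0a1 gave 1.51, 1.62 and 1.56, Atp6v0c 1.22, 1.30 and 1.23, and Atp6v1a 1.36, 1.01 and 0.78. With those 6 libraries left out, Atp6v0a1 gave 1.13, 1.23 and 1.17, Atp6v0c 0.64, 0.90 and 0.83, and Atp6v1a 1.08, 0.49 and 0.26, the latter not past the test (adjusted p = 0.14). Ctss then gave 5.20, 2.87 and 2.79, Ctsb 2.58, 1.97 and 1.77, Ctsz 2.45, 1.75 and 1.89, and Ctsl 2.24, 1.47 and 1.12. Atp6v0a4 was lower after JAK3i by -1.67, -2.41 and -2.65 and Atp6v1c2 by -1.48, -2.40 and -2.51. Against JAK1i these became -0.76 and -0.50 without JAK1i replicate 3, the latter with an adjusted p of 0.080, and -0.31 and -0.34 without the 6 libraries, with adjusted p of 0.48 and 0.53. Ctsw was lower than after ruxolitinib (-1.60) and tofacitinib (-1.04) but not distinguishable from JAK1i (0.11 ± 0.29, adjusted p = 0.78). Ctse did not differ detectably, with 95% intervals wider than a log2 fold change of 1 in either direction.

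**Figure D5:**
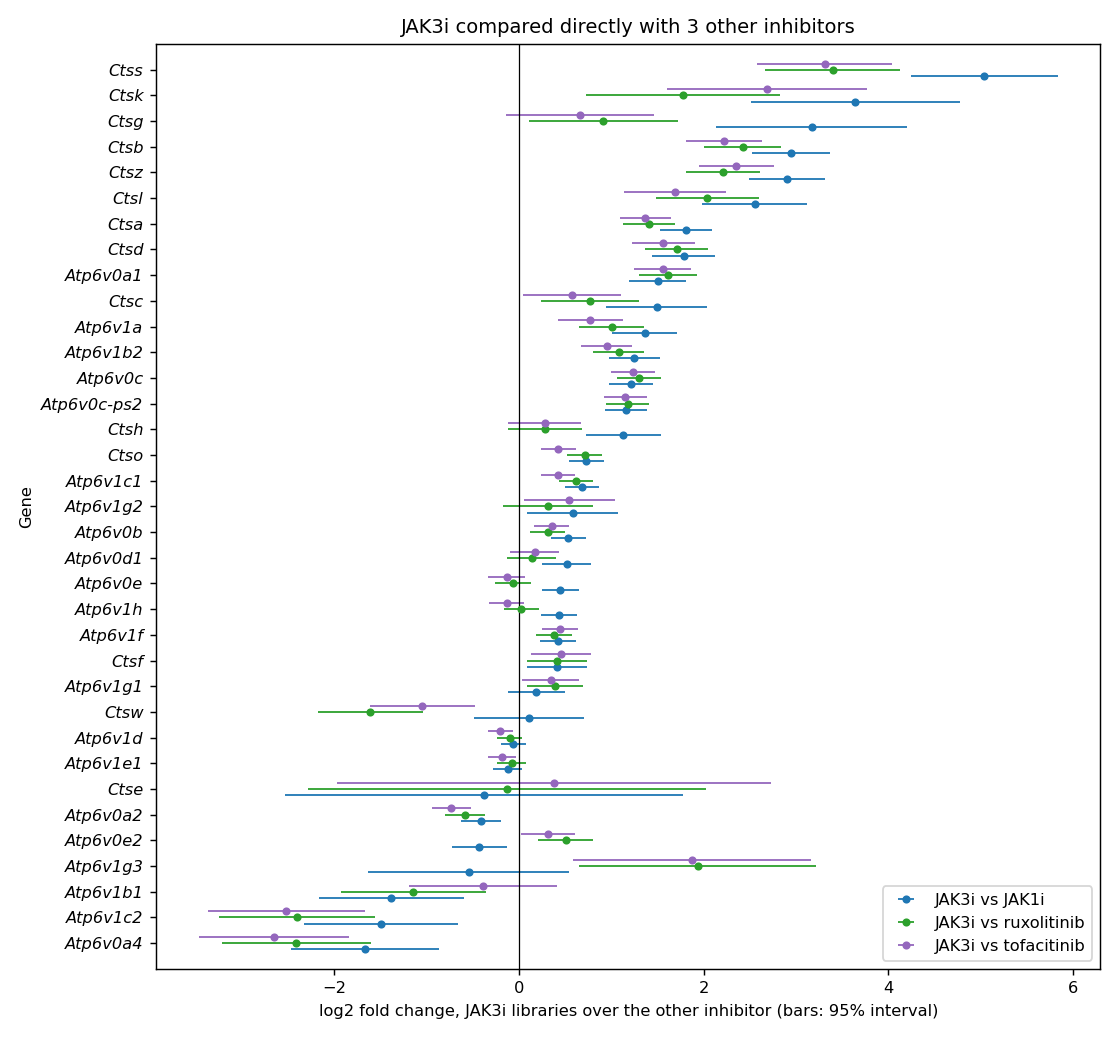
Points give the log2 fold change of the 35 genes in JAK3i libraries over JAK1i (blue), ruxolitinib (green) and tofacitinib (purple) libraries, with bars for the 95% interval. Ctss lies farthest right, at 5.04, 3.40 and 3.31, and Atp6v0a4 and Atp6v1c2 farthest left.

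Other genes of the lysosome and pump gave further values. Of 30 lysosomal hydrolases 20 rose and 2 fell after JAK3i (median log2 fold change 0.89), against 2 and 21 after JAK1i, 1 and 7 after ruxolitinib and 2 and 7 after tofacitinib. The shares of all genes higher and lower, which apply to each list, were 31.7% and 33.1% after JAK3i and 28.8% and 35.4% after JAK1i. They were 23.6% and 27.2% after ruxolitinib and 24.8% and 28.2% after tofacitinib, so the hydrolases lower after the last 2 were near that background. Galc and Hexa, which break down sphingolipids, gave 2.54 ± 0.17 and 2.38 ± 0.19 after JAK3i, and Galns and Naglu, which break down glycosaminoglycans, 1.84 ± 0.17 and 1.60 ± 0.15. Of 15 lysosomal membrane genes 8 rose and 3 fell, with 1.37 for Cd63, 0.84 for Lamp1, 0.56 for the calcium channel Mcoln1 and -0.56 for Scarb2, while 1 rose and 8 fell after JAK1i, 0 and 5 after ruxolitinib and 1 and 5 after tofacitinib. Of 12 tested genes for pump assembly and accessory subunits 7 rose and 0 fell, among them Tcirg1 (0.75), Dmxl2 (0.86) and Wdr7 (0.23) beside Atp6v0d2. With JAK1i 2 of these rose and 5 fell, with ruxolitinib 1 and 5, and with tofacitinib 2 and 4. The MiT/TFE and Ragulator list had 10 of 15 higher and 2 lower, with 1.26 for Flcn, 0.93 for Fnip1, 0.61 for Lamtor1 and 0.53 for Mitf. That list also had 7 higher and 3 lower after JAK1i, 4 and 3 after ruxolitinib and 6 and 3 after tofacitinib, and its summed level was 682 to 717 CPM with vehicle, 912 to 1020 with JAK3i and 818 to 1066 with JAK1i. Many endogenous cathepsin inhibitors fell: 9 of 12 fell and 2 rose after JAK3i, 10 fell and 1 rose after JAK1i, and 7 fell and 2 rose after both ruxolitinib and tofacitinib. Among them Cst6 gave -6.24, Csta1 -4.04, Cstb -1.83 and Serpinb1a -1.11 after JAK3i. These lists are described by counts and medians only.

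Macrophage markers rose after JAK3i and fell after JAK1i. Of 12 markers 8 rose and 0 fell after JAK3i (median log2 fold change 1.32, beside 31.7% and 33.1% of all genes), with Cd68 at 3.32 ± 0.29, Mertk at 2.12 ± 0.21, Lyz2 at 2.03 ± 0.39 and C1qc at 1.53 ± 0.31. After JAK1i 0 rose and 10 fell (median -1.69, with 35.4% of all genes lower). After ruxolitinib 0 rose and 2 fell (median -0.38) and after tofacitinib 0 and 3 (median -0.27), where 27.2% and 28.2% of all genes were lower. Their summed level was 1085 to 1289 CPM with vehicle, 1057 to 1565 before treatment, 3165 to 3870 with JAK3i, 174 to 785 with JAK1i, 1247 to 1521 with JAK2i, 803 to 1014 with ruxolitinib and 892 to 1063 with tofacitinib. None of the 12 was at 0 in any group. Their part in the values of Ctss, Ctsb, Ctsz, Ctsk and the pump genes was not tested. Fibroblast markers (8 genes, none at 0) summed to 3484 to 5035 CPM with vehicle and 3688 to 8426 before treatment. Inhibitor groups gave 4660 to 5739 (JAK3i), 770 to 4620 (JAK1i), 5008 to 7086 (JAK2i), 5248 to 7264 (ruxolitinib) and 5083 to 5541 (tofacitinib). The JAK1i median was 784. The part of fibroblasts in the values of Ctsk was not tested either. Of 7 tested osteoclast genes, which fuse precursors or resorb bone, 4 rose and 2 fell after JAK3i. The fusion genes Dcstamp and Ocstamp gave -3.75 ± 0.53 and -3.25 ± 0.42, and Acp5 and Tnfrsf11a 0.97 ± 0.19 and 0.88 ± 0.18.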

How the data were processed

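RNA-Seq was done by the study on 24 skin libraries of C3H/HeJ mice. The raw count per Entrez gene was used as deposited by the authors. The genome mm10 (GRCm38) and the tools Subread and DESeq2 1.18.1 are listed in the submitters' processing notes. Aligner settings, strand and annotation are not given in the sources used here, so overlapping genes cannot be separated. The small table holds expression and z score values made by the authors, and served only to check library names. Symbols that a spreadsheet had turned into dates (26) were restored by Entrez ID, and 855 genes without a symbol, up to 0.608% of counts per library, stayed in the library totals and the fit.

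Counts were fitted with edgeR 4.0.16 (R 4.3.3, quasi-likelihood test, TMM scaling, filterByExpr with minimum count 10) in a single model of 24 libraries in 7 groups. P-values were adjusted by Benjamini-Hochberg over 17770 genes, with a threshold of 0.05. CPM are TMM-scaled, apart from levels per kilobase of exon and the 0.0474 CPM limit for Atp6v1e2, which rest on library totals alone. Exon lengths are unions over GENCODE transcripts. Replicates differed by more than sampling noise (chi-square per gene at least 4.71). The fit was also run on simulated data in which few genes changed. That setting does not cover the large share of genes called here, so it says little about the scaling. The members, the lists and the direct comparisons of JAK3i were chosen with earlier results of these data known. Values in every library are given for the 3 largest called rises and falls per comparison among members with a mean log2 CPM of at least 1, and for 12 genes chosen by role. Library values of Ctsl, Atp6v1a and Atp6v0d2 were added after they were seen. Up to 4 members of each pathway list are those with the smallest p after JAK3i. Alternatives were DESeq2 1.42.0, other scalings and filters, other sets of libraries, leaving out each library, a replicate block and, chosen after seeing the data, leaving out the 6 libraries of conflicting name. The same replicate number did not pair libraries.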

Additional observations from a re-analysis of the deposited data

Results flagged for a closer look

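In pretreatment skin, the level of Atp6v1f (subunit F of the V1 sector) in replicate 3 lay apart from the other libraries. It held 44.4 CPM, against 49.5 to 51.7 CPM in the other 5, and the gap to its nearest neighbour was 0.6942 of the range of the group, above Dixon's 95% critical value of 0.625 for 6 samples. The pretreatment values of 35 genes were tested in this way, and chance alone flags about 1 group in 20.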

How the results depend on the processing

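Of 105 called differences from vehicle, 89 kept direction and side of the threshold under every alternative that used all libraries of the groups compared. When libraries were also left out, 77 did. In both counts, a difference was not counted as lost where a setting had dropped its gene (the stricter filter kept 33 of the 35). Without the 6 libraries of conflicting name, 2 turned direction, Atp6v1d (0.0014) and Atp6v1e1 (0.052) after JAK1i, and the count of genes higher after JAK3i than vehicle became 8 and that of genes lower than after tofacitinib 8. For JAK3i against JAK1i, the 2 groups alone gave 15 higher and 0 lower, and library totals alone 3 lower. No other count of calls over all 35 genes moved by more than 1.5 times, but within the V-ATPase genes those lower after ruxolitinib went from 12 to 6, and after tofacitinib from 9 to 6, with upper-quartile scaling or library totals alone. Leaving out 1 library gave 15 to 18 higher and 9 to 12 lower for JAK3i against vehicle, 2 to 3 and 21 to 24 for JAK1i, 2 to 3 and 18 to 22 for ruxolitinib, 3 and 17 to 21 for tofacitinib, and 0 for JAK2i and for vehicle against pretreatment. The direct comparisons of JAK3i gave 21 to 24 higher and 4 to 6 lower (JAK1i), 17 to 21 and 4 to 5 (ruxolitinib), and 16 to 18 and 4 to 7 (tofacitinib). Falls after JAK1i of Atp6v1c1, Atp6v1d and Atp6v1e1 were lost under DESeq2, RLE and upper-quartile scaling and both other filters. The cause was not tested.

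Over all genes, the share of calls that were higher was 46.4% for ruxolitinib against vehicle with TMM, 60.7% with upper-quartile scaling and 60.4% with library totals alone. For JAK1i it was 44.8% and 55.2% (upper-quartile), for tofacitinib 46.8% and 58.2% (upper-quartile), and for JAK3i against JAK1i 49.0% and 69.5% (totals). Upper-quartile scaling moved the median of all genes to 0.13 for JAK3i and for ruxolitinib. Replicate numbers did not pair libraries: same-numbered libraries deviated with a median correlation of -0.010 over 45 pairs, and 5 of 18 correlated best with their own number. With a replicate block the counts were 15 higher and 12 lower for JAK3i, 3 and 24 for JAK1i, 3 and 20 for ruxolitinib and 3 and 19 for tofacitinib. Depth limits Atp6v1g3, Ctsg and, after treatment, Ctse, which rest on few counts.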
